A study of Mus musculus with 10 samples.

Results

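The 9 genes described here encode complement components and regulators: the C1q subunits (C1qa, C1qb, C1qc), the proteases C1ra and C1s1, the components C3 and C4b, factor B (Cfb) and the C1 inhibitor (Serping1). They were taken by symbol from the expression table, where all 9 were found among 29890 listed genes, and all 9 passed the filter of a mean of at least 1 TPM. TPM is a transcript abundance corrected for transcript length and scaled within each library, so levels of different genes can be compared. It keeps no read depth, and the depth of each tumor is therefore unknown.

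Complement is a cascade of plasma and tissue proteins that tags surfaces for uptake, attracts leukocytes and can lyse membranes. In the classical pathway C1q binds an antibody-coated or altered surface, C1r activates C1s, C1s cuts C4 and C2, and the resulting enzyme cuts C3. Factor B forms the matching enzyme of the alternative pathway, and the C1 inhibitor blocks C1r and C1s. The liver makes most plasma complement, while C1q is made mainly by macrophages and related myeloid cells, and fibroblasts, endothelium and tumor cells can make C1r, C1s, C3, factor B and C1 inhibitor locally.

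RNA was sequenced from 10 bulk tumors of B2905-M4, a mouse melanoma line, injected under the skin of female C57BL/6J mice aged 7 to 8 weeks, and no immunotherapy was given to either group. In 5 tumors the cells overexpressed Adamts7, a secreted protease that cuts matrix proteins, and in 5 they carried a vector. The host had its own immune and stromal cells, and the promoter behind the overexpression and the number of clones are not given in the sources used here. Harvest was at day 35 for 2 Adamts7 tumors, day 45 for 3 tumors of each group and day 50 for 2 vector tumors, with the day of each tumor not stated. Day and group therefore cannot be told apart.

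Some libraries stood apart. Adamts7 itself was 88.5, 96.0, 78.2, 74.8 and 18.2 TPM over the tumors labelled Adamts7 1 to 5, against 6.49, 6.98, 28.3, 8.57 and 27.6 TPM over vector tumors 1 to 5. The tumor labelled Adamts7 5 thus lay below vector tumors 3 and 5 in its Adamts7 transcript level. Dct, an enzyme of melanin synthesis that marks melanocytic cells, ranged over 5131 to 8031 TPM in Adamts7 tumors and was 4959, 6374, 6.49, 3037 and 683 TPM over vector tumors 1 to 5. The log2 fold changes of the 9 genes and the medians printed for marker lists are therefore also given without vector tumors 3 and 5.

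The 9 complement genes had lower averages in Adamts7 tumors, and no difference passed the test. On the log2(TPM + 1) scale all 9 fold changes were negative, with a median of -1.30, while the median over all 15276 tested genes was -0.10 and 60.2% of tested genes were negative. With limma and Benjamini-Hochberg adjustment over all tested genes 0 of 9 passed an adjusted p of 0.05, beside 0.223% of all tested genes. At an unadjusted p under 0.05 there were 4 of 9, beside 20.2% of all tested genes. The values of the groups overlapped in all 9 genes, whereas 4.89% of tested genes did not overlap. In bulk tissue fewer cells of a type and less RNA per cell cannot be told apart.

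The pattern across tumors was shared by all members: vector tumors 3 and 5 were the 2 highest of the 10 tumors for each of the 9 genes. The same held for 24.1% of all tested genes. In 5 members, C1ra, C1s1, C3, Cfb and Serping1, the lower of these tumors was more than 2-fold above every other tumor, beside 5.92% of tested genes. The lowest tumor was Adamts7 5 for the C1q genes and Adamts7 4 for the other 6.

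**Figure D1:**
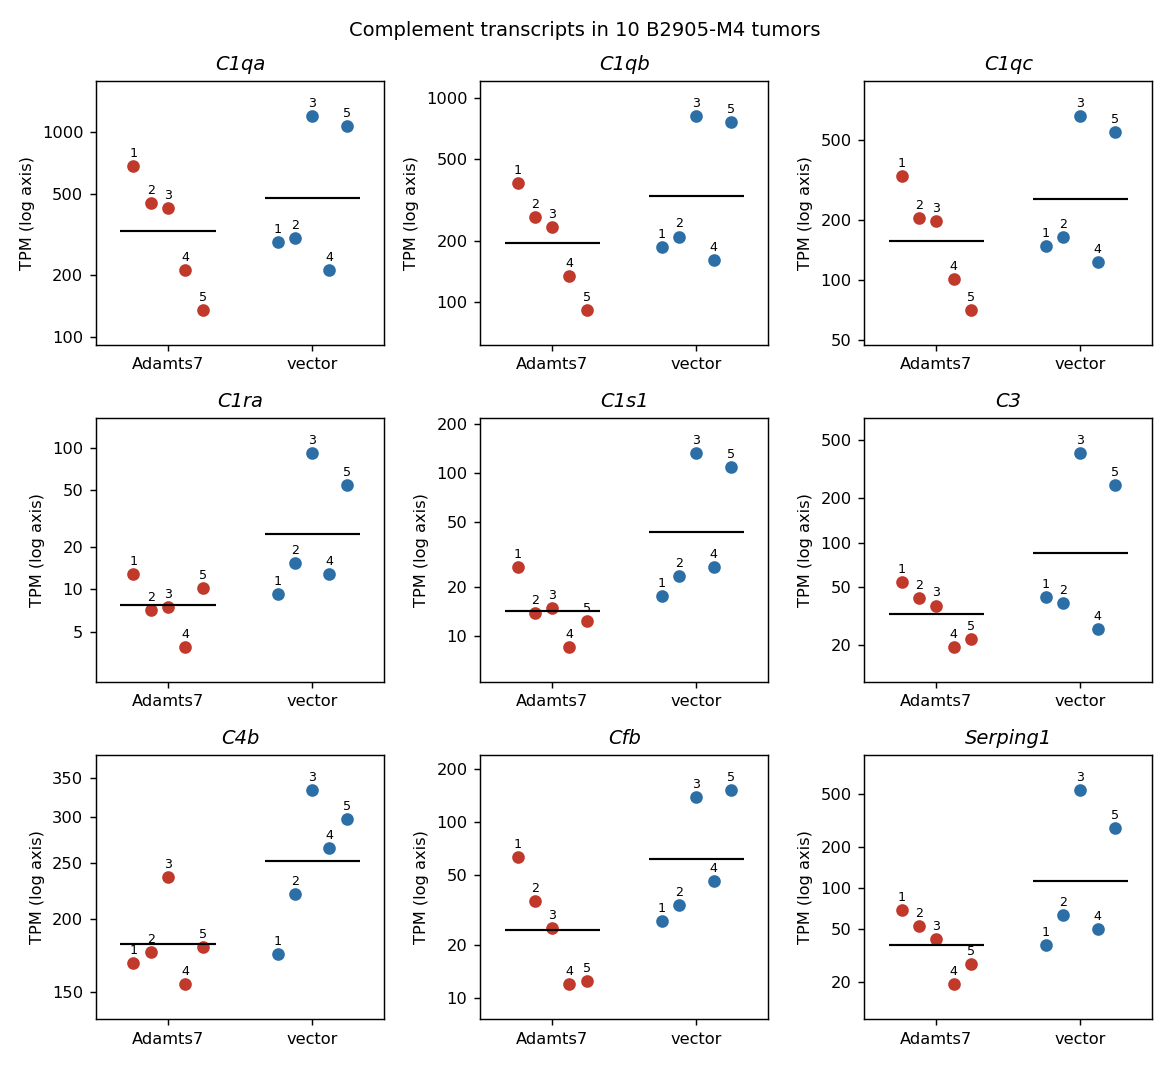
TPM of each of the 9 complement genes on a log axis, with Adamts7 tumors left in red and vector tumors right in blue, each point labelled with its tumor number and the line marking the mean on the log scale. Vector tumors 3 and 5 are the highest points in every panel, and the other 3 vector tumors lie among the Adamts7 tumors for most genes.

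C1q, the recognition subunit of the classical pathway, was the most abundant product of the set. C1qa was at 678, 448, 427, 211 and 136 TPM over Adamts7 tumors 1 to 5, against 289, 303, 1197, 212 and 1072 TPM over vector tumors 1 to 5. Adamts7 tumors 1, 2 and 3 lay above vector tumors 1, 2 and 4, and the groups overlapped. The C1qa means were 380.0 ± 214 TPM in Adamts7 tumors and 615 ± 478 TPM in vector tumors (SD, n = 5 each). C1qb averaged 220.3 ± 114 TPM in Adamts7 tumors and 426 ± 330.0 TPM in vector tumors, and C1qc averaged 181 ± 102 TPM in Adamts7 tumors and 329 ± 256 TPM in vector tumors (SD, n = 5 each). The log2 fold changes were -0.54 (SE 0.58), -0.75 (SE 0.55) and -0.69 (SE 0.56) for C1qa, C1qb and C1qc, with limma adjusted p-values of 0.601, 0.435 and 0.482.

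The subunits kept close to a fixed proportion while their levels varied. C1qa, C1qb and C1qc spanned 8.83-fold, 8.85-fold and 9.33-fold across the 10 tumors. The ratio of C1qc to C1qa within a tumor spanned 1.27-fold, from 0.455 to 0.578, and that of C1qb to C1qa 1.40-fold, from 0.543 to 0.760. The C1qb to C1qa ratio was 0.601 ± 0.0552 in Adamts7 tumors and 0.697 ± 0.0425 in vector tumors (SD, n = 5 each), and the groups overlapped between 0.645 and 0.677. The 3 genes lie side by side on mouse chromosome 4 in the RefSeq annotation, in the order C1qb, C1qc, C1qa, with no other annotated gene between them. The first bases upstream of C1qb and C1qc are shown because these neighbours varied together. Each run is the 250 bases before the RefSeq transcript start on build GRCm38.p6, minus strand, at chr4:136886201-136886450 for C1qb and chr4:136892915-136893164 for C1qc, 5′ to 3′ in the direction of the gene, with motif matches in capitals.
C1qb: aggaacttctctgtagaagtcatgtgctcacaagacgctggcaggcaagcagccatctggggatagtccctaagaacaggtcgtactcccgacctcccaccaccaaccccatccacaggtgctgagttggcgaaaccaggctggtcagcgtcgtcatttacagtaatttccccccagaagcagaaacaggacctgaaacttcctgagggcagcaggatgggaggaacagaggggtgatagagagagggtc
C1qc: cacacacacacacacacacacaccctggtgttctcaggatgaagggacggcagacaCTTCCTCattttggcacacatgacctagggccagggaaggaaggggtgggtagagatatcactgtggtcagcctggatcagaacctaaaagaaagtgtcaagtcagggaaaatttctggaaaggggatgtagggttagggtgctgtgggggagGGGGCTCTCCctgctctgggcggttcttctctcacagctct

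Searches covered 5 motifs on both strands: GAGGAAG, a PU.1-type sequence, TGCTGAC, a Maf-type sequence, GAAANNGAAA, the ISRE, TTGCNNAA, a C/EBP-type sequence, and the NF-kB motif. Among 32851 promoters of the same length in the table these were held by 10.6%, 3.81%, 2.98%, 9.56% and 7.25%. C1qc held GAGGAAG on the opposite strand, printed as CTTCCTC at positions -194 to -188 from the start, and an NF-kB match at -41 to -32. C1qb held none of the 5 in this window. A match is a description of letters and not a shown binding site.

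C1q transcripts kept near a fixed proportion to Csf1r, the receptor for macrophage colony-stimulating factor. Csf1r was between 13.7 and 79.7 TPM in Adamts7 tumors and between 27.6 and 133 TPM in vector tumors, a 9.68-fold span over all tumors. The ratio of C1qa to Csf1r within a tumor spanned 1.75-fold. It was 8.50, 9.19, 11.6, 9.42 and 9.89 in Adamts7 tumors 1 to 5, with a mean of 9.71 ± 1.15, and 6.60, 7.57, 9.03, 7.68 and 9.50 in vector tumors 1 to 5, with a mean of 8.08 ± 1.17 (SD, n = 5 each). On this ratio vector tumors 3 and 5 lay inside the range of the Adamts7 tumors.

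C1r and C1s are the proteases that C1q carries into the C1 complex. C1ra was at 12.8, 7.15, 7.47, 3.92 and 10.3 TPM over Adamts7 tumors 1 to 5, against 9.25, 15.4, 91.8, 12.8 and 54.7 TPM over vector tumors 1 to 5. C1s1 was at 26.6, 13.9, 14.9, 8.57 and 12.3 TPM over Adamts7 tumors 1 to 5, against 17.6, 23.5, 133, 26.5 and 109 TPM over vector tumors 1 to 5. Adamts7 tumor 1 lay within the vector range for both genes, while Adamts7 tumors 2, 3 and 4 lay below every vector tumor for both, as Adamts7 tumor 5 did for C1s1. The log2 fold changes were -1.57 (SE 0.58) for C1ra and -1.56 (SE 0.56) for C1s1, with limma adjusted p-values of 0.190 and 0.182. C1s1 had the smallest adjusted p of the 9 genes.

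C1ra and C1s1 also varied together. Their ratio was between 0.457 and 0.516 in Adamts7 tumors 1 to 4, 0.831 in Adamts7 tumor 5 and between 0.483 and 0.689 in the vector tumors, although C1ra spanned 23.4-fold and C1s1 15.5-fold across tumors. The genes are neighbours on chromosome 6. The near copies C1rb and C1s2 were at most 0.11 and 0.32 TPM in any tumor, so little signal was assigned to them, although division of reads between near copies is an estimate. C1q and the proteases did not keep a fixed proportion: the ratio of C1qa to C1s1 was 24.4 ± 8.09 in Adamts7 tumors and 11.2 ± 3.43 in vector tumors (SD, n = 5 each), and only Adamts7 tumor 5, at 10.97, lay within the vector range of 8.02 to 16.4. The 250 bases before the starts are shown for this second pair of neighbours that varied together, on build GRCm38.p6 at chr6:124512371-124512620 on the plus strand for C1ra and at chr6:124542360-124542609 on the minus strand for C1s1, for which the first of 2 listed starts was used.
C1ra: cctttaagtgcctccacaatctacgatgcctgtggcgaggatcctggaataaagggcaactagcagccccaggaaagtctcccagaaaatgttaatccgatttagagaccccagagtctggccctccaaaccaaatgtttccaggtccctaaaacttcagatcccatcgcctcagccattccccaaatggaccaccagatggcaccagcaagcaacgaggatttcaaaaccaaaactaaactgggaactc
C1s1: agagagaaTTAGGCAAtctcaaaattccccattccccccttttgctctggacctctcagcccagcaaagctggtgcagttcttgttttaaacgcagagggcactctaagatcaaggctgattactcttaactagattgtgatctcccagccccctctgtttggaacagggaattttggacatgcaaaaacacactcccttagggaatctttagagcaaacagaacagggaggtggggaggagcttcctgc

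C1s1 held TTGCNNAA on the opposite strand, printed as TTAGGCAA at -242 to -235, and C1ra held none of the 5 motifs.

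C3 is the central component on which all activation routes meet. Its values were 53.9, 41.8, 37.4, 19.6 and 22.0 TPM over Adamts7 tumors 1 to 5, against 42.6, 39.1, 406, 25.8 and 244 TPM over vector tumors 1 to 5. Apart from vector tumors 3 and 5 the C3 values of the groups were interleaved. The means were 34.9 ± 14.3 TPM in Adamts7 tumors and 152 ± 168 TPM in vector tumors (SD, n = 5 each), with a log2 fold change of -1.36 (SE 0.72) and a limma adjusted p of 0.305. The upstream sequence of C3 is shown as that of the member whose level separated vector tumors 3 and 5 most from all other tumors, by at least 4.53-fold, and lies on the minus strand at chr17:57228137-57228386 of GRCm38.p6.
C3: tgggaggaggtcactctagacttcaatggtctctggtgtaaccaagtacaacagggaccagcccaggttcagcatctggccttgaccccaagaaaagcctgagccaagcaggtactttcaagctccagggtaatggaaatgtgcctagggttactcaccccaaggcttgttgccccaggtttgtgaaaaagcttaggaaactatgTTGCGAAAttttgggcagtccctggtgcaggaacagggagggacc

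The C3 window held TTGCNNAA, printed as TTGCGAAA, at -45 to -38. None of these 5 windows held GAAANNGAAA, which says only that those letters are not in them.

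Factor B, the protease of the alternative pathway C3 convertase, is encoded by Cfb. Its values were 63.1, 35.4, 25.1, 12.1 and 12.5 TPM in Adamts7 tumors 1 to 5 and 27.5, 33.8, 138, 45.9 and 151 TPM in vector tumors 1 to 5. Adamts7 tumor 1 lay above vector tumors 1, 2 and 4. The log2 fold change was -1.30 (SE 0.58), with a limma adjusted p of 0.244.

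C4b, which encodes the C4 component cut by C1s, was the member that varied least. It was at 169, 176, 237, 155 and 179 TPM over Adamts7 tumors 1 to 5, against 174, 221, 333, 265 and 298 TPM over vector tumors 1 to 5, a 2.15-fold span over all tumors. Vector tumor 1 and Adamts7 tumor 3 made the groups overlap. The means were 183 ± 31.4 TPM in Adamts7 tumors and 258 ± 62.6 TPM in vector tumors (SD, n = 5 each). The log2 fold change was -0.47 with a standard error of 0.18, the smallest of both among the members, and the limma adjusted p was 0.201. The near copy C4a was at most 5.00 TPM, and reads shared between C4a and C4b are divided by estimate. Because C4b varied so little, its proportion to C3 differed widely: the ratio of C4b to C3 was between 3.13 and 8.13 in Adamts7 tumors, between 4.08 and 10.3 in vector tumors 1, 2 and 4, and 0.821 and 1.22 in vector tumors 3 and 5.

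The C1 inhibitor gene Serping1, whose product blocks C1r and C1s, was at 68.9, 52.2, 41.9, 19.4 and 27.3 TPM over Adamts7 tumors 1 to 5, against 38.0, 63.2, 530, 49.8 and 278 TPM over vector tumors 1 to 5. It had the widest span of the 9 genes, 27.3-fold. The means were 41.9 ± 19.7 TPM in Adamts7 tumors and 192 ± 213 TPM in vector tumors (SD, n = 5 each), with a log2 fold change of -1.54 (SE 0.70) and a limma adjusted p of 0.252. The ratio of the inhibitor to its target, Serping1 to C1s1, was 2.73 ± 0.630 in Adamts7 tumors and 2.65 ± 0.807 in vector tumors (SD, n = 5 each), so the ratio differed by less than the spread between tumors.

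**Figure D2:**
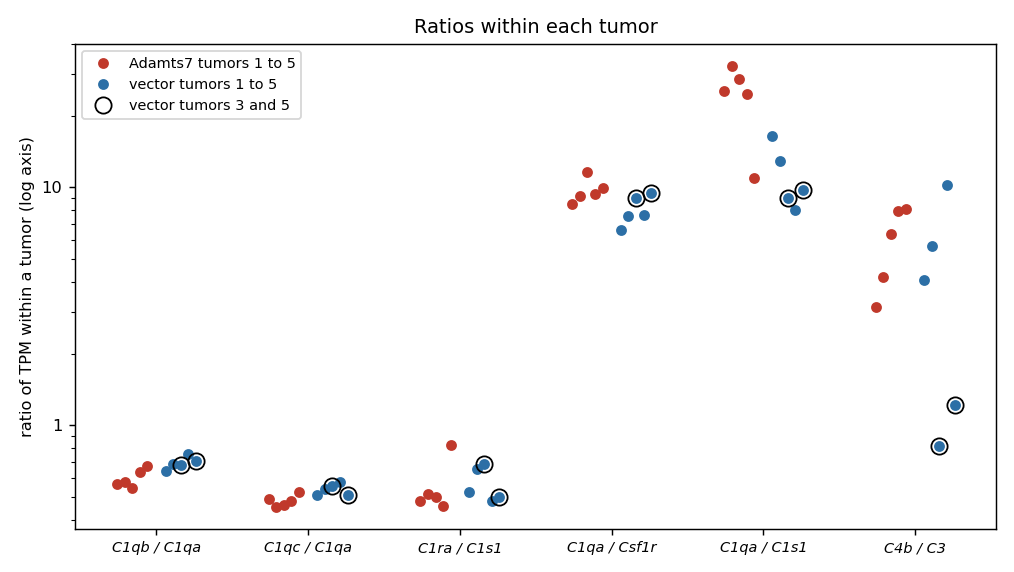
Ratios of TPM within each tumor on a log axis, with Adamts7 tumors in red left of vector tumors in blue and vector tumors 3 and 5 ringed. The ratios of C1qb and C1qc to C1qa, of C1ra to C1s1 and of C1qa to Csf1r stay within narrow bands, while the ratio of C4b to C3 is 0.821 and 1.22 in the ringed tumors and at least 3.13 in all others.

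By average level the genes ran C1qa, C1qb, C4b, C1qc, Serping1, C3, Cfb, C1s1 and C1ra in Adamts7 tumors, from 380.0 to 8.31 TPM. In vector tumors the order was C1qa, C1qb, C1qc, C4b, Serping1, C3, Cfb, C1s1 and C1ra, from 615 to 36.8 TPM. In vector tumors each gene differed from its neighbour in this order by less than the larger of their SDs. The same held in Adamts7 tumors, except between C1qc and Serping1 and between C1s1 and C1ra. The 3 C1q transcripts made up between 53.1% and 78.0% of the summed TPM of the 9 genes in Adamts7 tumors and between 53.9% and 67.7% in vector tumors. The sum itself was between 562 and 1788 TPM in Adamts7 tumors and between 922 and 4304 TPM in vector tumors.

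The size of the averages depended on vector tumors 3 and 5, and the direction for C1q did as well. Without these tumors the log2 fold changes of C1qa, C1qb and C1qc were 0.30 (SE 0.48), 0.08 (SE 0.41) and 0.13 (SE 0.45). Those of C1ra and C1s1 were -0.59 (SE 0.32) and -0.60 (SE 0.31), C3 was at -0.10 (SE 0.34), C4b at -0.26 (SE 0.17), Cfb at -0.50 (SE 0.51) and Serping1 at -0.36 (SE 0.38). The median of the 9 was then -0.26, beside -0.10 over all tested genes, and 0 of 9 passed with limma, beside 0.183% of all tested genes. With the tumor labelled Adamts7 5 removed too the C1qa, C1qb and C1qc values were 0.62 (SE 0.35), 0.35 (SE 0.31) and 0.42 (SE 0.35), 4 of 9 were positive, beside 38.8% of all tested genes, and 0 of 9 passed with limma, beside 5.24% of all tested genes. Leaving out vector tumor 3 alone moved the median of the 9 to -0.79.

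**Figure D3:**
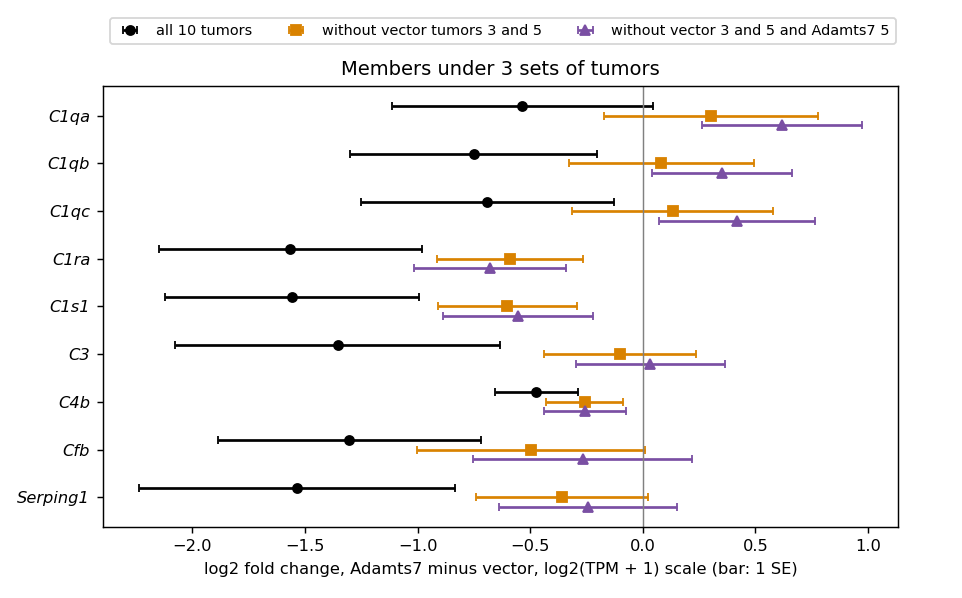
Log2 fold changes of the 9 genes, Adamts7 minus vector on the log2(TPM + 1) scale, with bars of 1 standard error, for all 10 tumors and for the 2 smaller sets of tumors. The C1q genes lie left of 0 with all tumors and right of 0 in both smaller sets, while C1ra and C1s1 stay left of 0 in all 3.

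The authors' deposited table of their own comparison lists 4 of the 9 genes under an adjusted p of 0.05, beside 7.96% of the 18796 genes with an adjusted p. Adamts7 has a log2 fold change of 2.32 in the authors' deposited table, so positive values there mean higher in Adamts7 tumors. In the authors' deposited table C1ra is at -2.02 (SE 0.58, adjusted p = 0.0134) and C1s1 at -1.91 (SE 0.55, adjusted p = 0.0134). C3 is at -1.99 (SE 0.67, adjusted p = 0.0395) and Serping1 at -2.07 (SE 0.66, adjusted p = 0.0275) in the authors' deposited table. The other 5 genes, C1qa, C1qb, C1qc, C4b and Cfb, have adjusted p-values between 0.127 and 0.540 in the authors' deposited table.

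Markers of cells that can make complement varied across the same tumors. Of the 10 macrophage markers 0 passed and 8 were negative, with a median log2 fold change of -0.73 and summed levels between 171 and 760.4 TPM in Adamts7 tumors and between 519 and 978 TPM in vector tumors. Cd68, the most abundant of them, was instead low in vector tumors 3 and 5: it was 378, 415, 462, 388 and 72.3 TPM over Adamts7 tumors 1 to 5, against 400.4, 411, 162, 218 and 158 TPM over vector tumors 1 to 5. Without vector tumors 3 and 5 the macrophage median was -0.03. The 10 fibroblast markers had a median of -0.22 with 0 called and summed levels, led by Col3a1, between 348 and 1852 TPM in Adamts7 tumors and between 466 and 1533 TPM in vector tumors. Without vector tumors 3 and 5 the fibroblast median was 0.22, with 7 of 10 positive. The 6 endothelial markers, led by Pecam1, had a median of -0.38 with 0 called, and sums of 42.5 to 85.2 TPM in Adamts7 tumors and 50.7 to 92.3 TPM in vector tumors. Their median was -0.19 without vector tumors 3 and 5.

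Markers of T cells and of interferon-gamma response were highest in vector tumors 3 and 5, as the complement genes were. The 10 T cell markers, led by Cd3g, gave a median of -1.69 on the log2 scale with 0 called. Their sums were 21.2 to 51.2 TPM in Adamts7 tumors, against 50.1, 70.0, 443, 51.9 and 330.4 TPM over vector tumors 1 to 5. Their median was -0.70 once vector tumors 3 and 5 were left out. Of 15 genes induced by interferon-gamma, led by Psmb8, 3 fell with limma: Gbp4, Iigp1 and Irgm1, with log2 fold changes of -3.13, -2.44 and -1.69 and adjusted p-values of 0.0464, 0.0339 and 0.0481, beside 0.223% of all tested genes called. The 15 genes had a median of -2.21 and sums between 586 and 1039 TPM in Adamts7 tumors and between 1681 and 6247 TPM in vector tumors. Without vector tumors 3 and 5 their median was -1.29, and Irgm1 was the 1 of 15 that passed (limma adjusted p = 0.0343), with Gbp4 and Iigp1 both at 0.0547. The 10 melanocyte genes, led by Dct, had a median of 2.23 with 0 called, and sums of 448 and 2319 TPM in vector tumors 3 and 5 against at least 10350 TPM in every other tumor. Without vector tumors 3 and 5 the melanocyte median was 0.15, with 5 of 10 positive. The part of these cells in the complement values was not tested. Hepatocyte markers, of which 6 of 7 were listed and Alb was not analysed here, summed to between 2.80 and 6.35 TPM in Adamts7 tumors and between 4.08 and 7.63 TPM in vector tumors, most of it Apoa2. Neutrophil markers, 5 of 6 listed and led by S100a8, summed to at most 5.96 TPM in Adamts7 tumors and 7.33 TPM in vector tumors.

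Of 50 other genes of the complement system 44 were listed and 25 passed the filter. Of these 25, 0 passed the limma test, 20 had negative and 5 positive log2 fold changes, beside 60.2% negative over all tested genes, and the median was -0.48. At an unadjusted p under 0.05 there were 2 of 25, among them Hc, beside 20.2% of all tested genes. Without vector tumors 3 and 5 the median was -0.02, with 12 of 25 positive, beside 35.4% of all tested genes.

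In the classical and lectin pathway 6 of 14 genes were tested, with a median of -0.48. C2, the protease of the classical C3 convertase and a close neighbour of Cfb, averaged 4.52 ± 2.54 TPM in Adamts7 tumors and 9.57 ± 6.58 TPM in vector tumors (SD, n = 5 each). Colec12, a scavenger receptor of the collectin family, averaged 5.04 ± 2.96 TPM in Adamts7 tumors and 9.89 ± 7.46 TPM in vector tumors (SD, n = 5 each). Fcna, a ficolin of the lectin pathway, had a positive log2 fold change of 0.37 (SE 0.60) and was highest in Adamts7 tumor 1 at 21.9 TPM and lowest in vector tumor 4 at 1.00 TPM.

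In the alternative and terminal pathway 5 of 9 genes were tested, with a median of -0.67. Hc, which encodes C5, averaged 0.936 ± 0.397 TPM in Adamts7 tumors and 3.85 ± 2.94 TPM in vector tumors (SD, n = 5 each), with a log2 fold change of -1.14 (SE 0.38, limma adjusted p = 0.158) and of -0.65 (SE 0.30) without vector tumors 3 and 5. Cfp, which encodes properdin, the stabilizer of the alternative convertase, was between 10.1 and 45.9 TPM in Adamts7 tumors and between 15.0 and 75.9 TPM in vector tumors. Cfd, which encodes factor D, the protease that cuts factor B and is abundant in fat, did not follow the members: it was highest at 31.9 TPM in vector tumor 1 and 12.9 TPM in Adamts7 tumor 5, and lowest at 0.31 TPM in Adamts7 tumor 4 and vector tumor 3. C7 and C8a, parts of the membrane attack complex, were at most 0.46 and 0.02 TPM.

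Among soluble regulators 3 of 9 genes were tested, with a median of -0.69. Clu, which encodes clusterin, was between 2.60 and 13.2 TPM in Adamts7 tumors and between 3.08 and 23.2 TPM in vector tumors. Vtn, which encodes vitronectin, had a log2 fold change of 0.43 (SE 0.26).

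Membrane regulators shield cells from complement, and 4 of 8 were tested, with a median of -0.48. Cr1l, the rodent regulator Crry that limits C3 deposition, averaged 71.5 ± 7.46 TPM in Adamts7 tumors and 70.3 ± 10.7 TPM in vector tumors (SD, n = 5 each), so the groups differed by less than the spread between tumors. Cd59a, which blocks the membrane attack complex, averaged 31.1 ± 8.79 TPM in Adamts7 tumors and 47.2 ± 20.9 TPM in vector tumors (SD, n = 5 each). Cd55, the decay-accelerating factor, was between 0.65 and 4.05 TPM in Adamts7 tumors and between 0.66 and 8.93 TPM in vector tumors.

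Of 10 receptor genes 7 were tested, with a median of -0.35. Itgb2, the shared beta chain of the complement receptors of phagocytes, averaged 27.3 ± 12.2 TPM in Adamts7 tumors and 65.2 ± 47.2 TPM in vector tumors (SD, n = 5 each). C1qbp, a mainly mitochondrial protein that binds C1q, ran against the members, at 156 to 172 TPM in Adamts7 tumors, against 163, 173, 88.6, 139 and 102 TPM over vector tumors 1 to 5. Cd93, an endothelial and myeloid surface protein once described as a C1q receptor, was at 35.1, 48.9, 40.1, 38.8 and 29.2 TPM over Adamts7 tumors 1 to 5, against 86.2, 93.4, 14.5, 68.5 and 18.1 TPM over vector tumors 1 to 5. Its log2 fold change was -0.19 (SE 0.50) with all tumors, -1.09 (SE 0.17, limma adjusted p = 0.0582) without vector tumors 3 and 5, and -1.002 (SE 0.14, limma adjusted p = 0.0199) with the tumor labelled Adamts7 5 removed too. It was the 1 of 25 genes that passed in that fit, beside 5.24% of all tested genes. In the other settings tried the limma adjusted p of Cd93 was between 0.140 and 0.985.

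**Figure D4:**
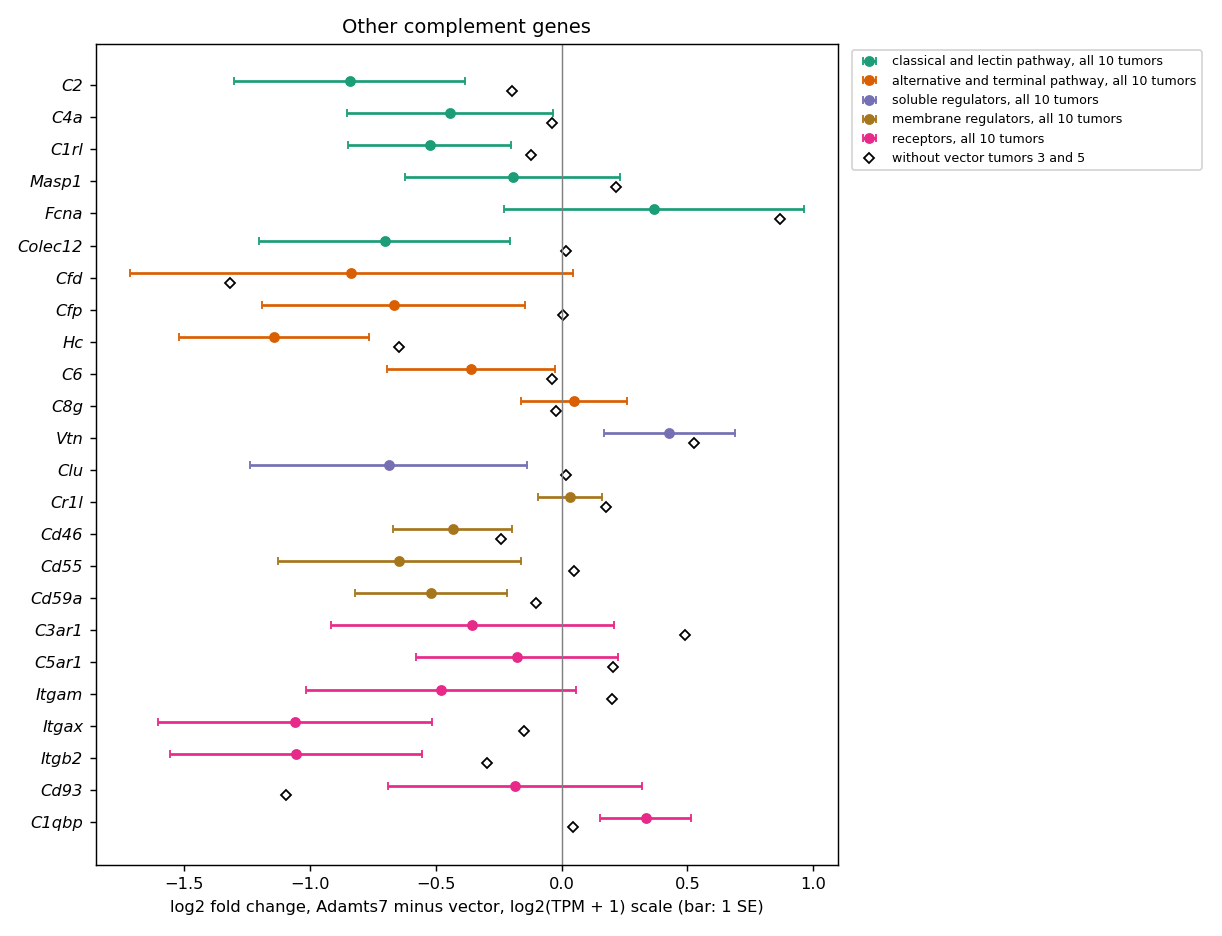
Log2 fold changes, Adamts7 minus vector on the log2(TPM + 1) scale, of 24 of the 25 other complement genes tested, coloured by role with bars of 1 standard error, and open diamonds for the fit without vector tumors 3 and 5. Most circles lie left of 0, while most diamonds lie near 0 and those of Cfd and Cd93 lie farthest to the left.

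Likeness to C1qa and C3 over the 10 tumors was measured as the root mean square distance between log2(TPM + 1) profiles after each gene's mean was subtracted. Outside the 9 genes the 5 closest to C1qa were P2ry6, a nucleotide receptor, at a distance of 0.136, C3ar1, the receptor for the C3a fragment, at 0.165, Arl4c at 0.168, Nckap1l, a cytoskeletal regulator of blood cells, at 0.178 and Ptgfrn at 0.179. C3ar1 was at 25.6, 13.2, 15.3, 7.44 and 4.89 TPM over Adamts7 tumors 1 to 5, against 8.49, 8.00, 38.6, 7.26 and 36.6 TPM over vector tumors 1 to 5, with vector tumors 3 and 5 and Adamts7 tumor 1 the highest and Adamts7 tumor 5 the lowest, as for C1qa. The 5 closest to C3 were Loxl4, a lysyl oxidase of the matrix, at 0.228, Acp5, an acid phosphatase of osteoclasts and macrophages, at 0.235, Palld at 0.296, Ccl22, a chemokine of dendritic cells and macrophages, at 0.304 and Cd3d, a chain of the T cell CD3 complex, at 0.309. Among the members Serping1 was the closest to C3, at 0.297, and C4b the farthest from C3, at 1.11. These profiles share the same libraries, and the distances are a description with no test.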

How the data were processed

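The authors deposited gene expression as log2 values, log2(TPM + 1) per gene symbol. RSEM, DESeq2 and the build mm39 are named in the submitters' processing notes; aligner and annotation are not given in the sources used here. Per the labels' protocols, spike-ins and molecular identifiers were added, and whether counting used them is not given. Back on the linear scale the tumors summed to 995286 to 998019 TPM. The authors' deposited comparison table holds a mean normalized signal, log2 fold changes, a test score and p-values per gene identifier, of which 28805 of 30040 were paired with symbols. The repertoire table was not used.

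The test was limma (version 3.58.1, R version 4.3.3) with a trended prior variance, run on log2(TPM + 1), thus with a pseudocount of 1 TPM. It took each gene whose average over all 10 tumors reached 1 TPM; the model had a group term alone, and Benjamini-Hochberg adjusted p-values were read at 0.05. Fold changes on this scale understate changes of low genes. Ratios and counts were computed in Python (version 3.11.15) with pandas (version 2.3.3). Groups came from the titles. The labels do not say that tumors came from separately made cell populations, so p-values measure the spread between these tumors. No 2 tumors had identical values. The members, gene lists and tests were chosen with earlier results of these data known, and the motifs after the tumors' values were seen. The text names the 9 members, the 3 most abundant genes of each role list, of which 1 is not reported here, and any called gene, the most abundant marker of each cell type list, and the 5 genes most like C1qa and C3. Other genes, such as Csf1r, C7 and C8a, the near copies of members and single markers, were named after their values were seen.

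Promoters came from RefSeq (GRCm38.p6), where 5 of the 9 members had an entry; sequences of C1qa, C4b, Cfb and Serping1 are not shown. That build is not the one named for the files, so its names were used with no file coordinates. On simulated data of 15276 genes in 10 runs with 200 changed genes, recovery for Adamts7 against vector tumors was 50.1% at a log2 change of 1, 84.8% at 2 and 91.4% at 3. The changed genes were drawn at random from all tested genes, and noise was drawn for each gene separately, with no tumors moving together. These shares are averages over such genes and do not give the recovery of the 9 members, whose standard errors ran from 0.18 for C4b to 0.72 for C3. Alternatives were other pseudocounts, filters, scalings, variance models, tumor weights, a replicate block and each tumor left out. The fit that leaves out vector tumors 3 and 5, and that which also omits Adamts7 tumor 5, were added after the data were seen.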

Additional observations from a re-analysis of the deposited data

Results flagged for a closer look

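Of 48 sets of 5 tumors examined, the 24 named complement genes in each group, 1 held a tumor far from the rest of its group. Cr1l, the rodent regulator of C3 deposition, was at 84.5 TPM in Adamts7 tumor 5 and between 66.7 and 70.7 TPM in the other 4 Adamts7 tumors, a gap of 0.756 of the group's range on the log2 scale, above the critical value of 0.71 for 5 samples. Chance flags about 1 in 20 such sets.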

How the results depend on the processing

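In each of the 20 alternative settings and both added fits 0 of the 9 members passed with limma, and 0 of the other complement genes passed in all but 1 of them. Of 180 member fold changes in those 20 settings 177 kept their direction. The 3 that turned were those of C1qa, C1qb and C1qc under tumor weights, at 0.31, 0.034 and 0.11, where vector tumors 3 and 5 had weights of 0.265 and 0.322 and Adamts7 tumor 5 had 0.307. Colec12 turned there to 0.00995. Median-of-ratios scaling and quantile normalization moved the median of all genes from -0.10 to 0.01 and 0.04, and the median of the 9 members was -1.19 and -1.23 there. The median of the 9 was -0.34 under tumor weights, -0.26 without vector tumors 3 and 5 and -0.24 with Adamts7 tumor 5 left out as well; leaving out 1 tumor gave -1.59 to -0.79.

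Among the members and the 3 most abundant genes of each role, without vector tumors 3 and 5 the direction turned for C1qa (0.30), C1qb (0.083), C1qc (0.13), Colec12 (0.0192), Cfp (0.0041), Clu (0.0161) and Cd55 (0.05001). Of the less abundant complement genes tested, C3ar1 (0.49), Itgam (0.20), C5ar1 (0.20), Masp1 (0.22) and C8g (-0.0218) turned there too. With Adamts7 tumor 5 also left out it turned, among the same named genes, for C1qa (0.62), C1qb (0.35), C1qc (0.42), C3 (0.0335), C2 (0.0427), Colec12 (0.21), Cfp (0.26), Clu (0.24) and Cd55 (0.10), and 1 of 25 other complement genes passed. Leaving out 1 tumor gave Cr1l values of -0.0378 to 0.10, Cd93 values of -0.56 to 0.0884 and Fcna values of -0.12 to 0.71. Over all genes 34 were called, against 10 with no filter, 1219 under tumor weights, 800 in the fit without 3 tumors and 6 to 655 when 1 tumor was left out, the highest without Adamts7 tumor 5. A replicate block on the tumor numbers left 0 genes called over all genes, with 3028 at an unadjusted p under 0.05, and 0 of 9 members. Deviations of same-numbered tumors correlated between -0.278 and 0.262, and 1 of 5 Adamts7 tumors correlated best with the vector tumor of its own number. No pairing by number was seen, but with 5 tumors per group this check cannot exclude one. TPM keeps no depth, so precision of low genes such as C1rb is unknown.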

Other observations

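Other macrophage genes did not keep the proportion to C1qa that Csf1r kept. The ratio of C1qa to Aif1, a calcium-binding protein of macrophages and microglia, was 19.1, 27.7, 36.6, 33.6 and 12.2 in Adamts7 tumors 1 to 5 and 18.5, 14.1, 6.00, 7.79 and 4.52 in vector tumors 1 to 5, an 8.10-fold span over all tumors. Vector tumors 3, 4 and 5 lay below all Adamts7 tumors on this ratio, although vector tumors 3 and 5 had the highest C1qa levels. Aif1 was highest in vector tumors 5 and 3, at 237 TPM and 199.6 TPM, with at most 35.6 TPM in any other tumor. The ratio of C1s1 to the summed fibroblast markers, multiplied by 1000, was 20.3 ± 9.18 in Adamts7 tumors and 54.6 ± 27.7 in vector tumors (SD, n = 5 each), and the groups overlapped. Most of that sum was Col3a1, Col1a1 and Col1a2, which were highest in Adamts7 tumor 1, at 653.7, 520.0 and 459.7 TPM. Dcn and Lum of the same list were instead highest in vector tumors 3 and 5, as C1s1 was. Dcn was 229.5 and 163.4 TPM there, and Lum 72.78 and 92.8 TPM. The ratio to the sum therefore does not describe each fibroblast marker. Genes and ratios were chosen after their values were seen, and no test was made.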
